A study of Mus musculus with 7 samples.

Results

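The lysosomal genes described here are 35 genes chosen by name, for proteases, lipid and glycan hydrolases, membrane proteins and regulators of the lysosome, and the 23 targets whose symbol starts with Atp6v0 or Atp6v1, which are subunits of the lysosomal proton pump except for Atp6v1fnb, a gene named as the neighbour of Atp6v1f. Together they were 58 of the 19951 genes in the deposited count table. RNA was counted by GeoMx digital spatial profiling with its mouse whole transcriptome probes: barcodes on the bound probes are released by light from a chosen region and sequenced. Regions in fixed liver sections of 24-week-old mice were selected for Albumin, the main secreted protein of hepatocytes, and against CLEC4F, a surface lectin of resident liver macrophages. Of the 6 regions, 3 came from mice on the diet labelled NCD and 3 from mice on the diet labelled FFD. The comments in the segment table mark all 6 as WT, and the genotype field of the labels holds the diet name. Which mouse each region came from is not given in the labels, so p-values measure the spread between these regions, and are too small if regions of a diet shared an animal.

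Lysosomes are acidic vesicles in which proteases, lipases and glycosidases break down material taken up from outside the cell or delivered by autophagy. The pump that acidifies them, the V-type ATPase, has a cytosolic V1 sector that hydrolyses ATP and a membrane V0 sector that carries protons. Most hydrolases reach the lysosome on the mannose 6-phosphate tag, and many lysosomal genes carry a CLEAR element near their start, the site bound by the transcription factor Tfeb and its relatives. In liver, hepatocytes use lysosomes to turn over organelles, lipid droplets and glycoproteins, and macrophages are rich in lysosomes.

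The letters CACGTG, the core shared by many E-box sites, were searched on both strands in RefSeq promoters of GRCm38.p6, from 250 bases before to 50 bases after the annotated start. They were in the promoters of 15 of the 49 lysosomal genes with an entry (30.6%), against 2187 of all 27025 genes (8.09%). The longer GTCACGTG, the core of the CLEAR element, which always holds the shorter motif, was in 10 of 49 (20.4%) against 689 of 27025 (2.55%). No entry was found for Asah1, Atp6v0a2, Atp6v0d2, Atp6v1b2, Atp6v1c1, Atp6v1g1, Atp6v1h, Ctsb and Ctsh. The promoters of the protease genes Ctsd and Lgmn and of the membrane protein genes Lamp1 and Mcoln1 are printed because they hold the longer motif in genes whose levels are given region by region below. Each is written 5′ to 3′ on the gene's strand, with every CACGTG, or the 8 letters of the longer motif, in capitals.
Ctsd, chr7:142387778-142388077, minus strand: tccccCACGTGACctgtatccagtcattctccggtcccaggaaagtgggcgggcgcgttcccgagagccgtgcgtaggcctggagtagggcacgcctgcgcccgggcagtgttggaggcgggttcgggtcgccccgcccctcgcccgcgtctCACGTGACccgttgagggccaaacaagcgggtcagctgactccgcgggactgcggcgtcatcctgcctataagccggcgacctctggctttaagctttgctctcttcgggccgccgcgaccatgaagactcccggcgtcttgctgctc
Lgmn, chr12:102439043-102439342, minus strand: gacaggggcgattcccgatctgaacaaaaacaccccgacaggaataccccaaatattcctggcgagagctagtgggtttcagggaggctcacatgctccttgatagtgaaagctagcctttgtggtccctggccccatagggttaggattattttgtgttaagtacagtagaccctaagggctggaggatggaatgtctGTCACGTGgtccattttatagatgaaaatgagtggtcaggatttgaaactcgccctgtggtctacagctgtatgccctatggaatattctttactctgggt
Lamp1, chr8:13158911-13159210, plus strand: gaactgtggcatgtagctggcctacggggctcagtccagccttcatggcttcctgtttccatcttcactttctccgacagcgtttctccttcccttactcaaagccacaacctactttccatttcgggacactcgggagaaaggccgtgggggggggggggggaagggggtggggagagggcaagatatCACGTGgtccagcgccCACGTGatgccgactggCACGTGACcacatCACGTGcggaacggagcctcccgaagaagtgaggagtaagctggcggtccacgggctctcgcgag
Mcoln1, chr8:3500269-3500568, plus strand: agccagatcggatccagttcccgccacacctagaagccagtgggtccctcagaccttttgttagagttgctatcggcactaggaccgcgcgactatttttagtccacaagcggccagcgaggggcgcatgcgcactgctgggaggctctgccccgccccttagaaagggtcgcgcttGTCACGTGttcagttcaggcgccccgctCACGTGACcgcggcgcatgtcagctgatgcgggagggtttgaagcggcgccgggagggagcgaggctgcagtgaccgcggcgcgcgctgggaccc
The first CACGTG of the Ctsd promoter begins 245 bases before the start and the next one 98 bases before it. In Lgmn the motif begins 49 bases before the start in 1 of its annotated promoters. Lamp1 holds 4 copies, the first of them 61 bases before the start, and Mcoln1 holds copies 71 and 45 bases before it. The match describes the letters only, and binding was not measured.

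Total counts over the 13095 tested genes ran from 2069102 to 3491371 per region, and sequencing saturation from 99.1 to 99.3%. Levels are given as CPM, counts relative to library sizes scaled by the upper quartile, and a gene is called above the detection limit where it exceeded 2 times the negative probe level, which came to 25.5 to 28.0 CPM in NCD and 18.2 to 21.8 CPM in FFD regions. NCD regions held 1747 to 1940 nuclei and FFD regions 1077 to 1264. The summed counts exceeded the deduplicated reads 1.20 and 1.51 times in FFD 1 and FFD 2 and were close to them in the other 4 regions (0.996 to 1.01 times). Alb, by which regions were selected, took 5.08 to 7.10% of counts in NCD and 2.70 to 4.56% in FFD regions. Its log2 fold change of -0.93 ± 0.33 (SE) did not pass the test (edgeR adjusted p = 0.0648).

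Together, the 58 lysosomal genes took a larger part of the RNA counted in FFD than in NCD regions. Their share of counts was 0.570, 0.570 and 0.584% in NCD 1 to 3 and 0.873, 0.869 and 0.919% in FFD 1 to 3. Of the 52 genes that could be tested, 24 rose and 2 fell in FFD by edgeR's quasi-likelihood test at a Benjamini-Hochberg adjusted p of 0.05. Over all 13095 tested genes 5.94% rose, 11.1% fell and 17.1% passed in either direction. The median log2 fold change of the lysosomal genes was 0.37, ranging from -0.64 for Atp6v1c2 to 1.35 for Laptm5, where that of all tested genes was -0.11. In 30 of the 52 every FFD region lay above every NCD region, as in 12.2% of all tested genes, and in 3 every FFD region lay below, as in 24.5%. These genes were chosen with earlier results of these data known, so the counts describe this list and not lysosomal genes at large. Of the further lysosomal hydrolases and membrane proteins counted below, 12% and 14.8% rose, beside 46.2% here. In bulk regions such as these, more cells of a type that expresses a gene and more RNA per cell cannot be told apart.

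Of all 58 genes, 44 were above the detection limit in all 6 regions and 8 in none. The latter were Gla, Naglu, Atp6v0a4, Atp6v1b1, Atp6v1c2, Atp6v1e2, Atp6v1fnb and Atp6v1g3. Naglu and the targets Atp6v0a4, Atp6v1b1, Atp6v1e2, Atp6v1fnb and Atp6v1g3 were not in the authors' filtered table and were not tested in the fit given here. Of the 48 lysosomal genes whose mean count over all regions exceeded 2 times the mean negative probe level, 24 rose and 1 fell, beside 8.38% and 11.8% of the 8886 such genes in the table.

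**Figure D1:**
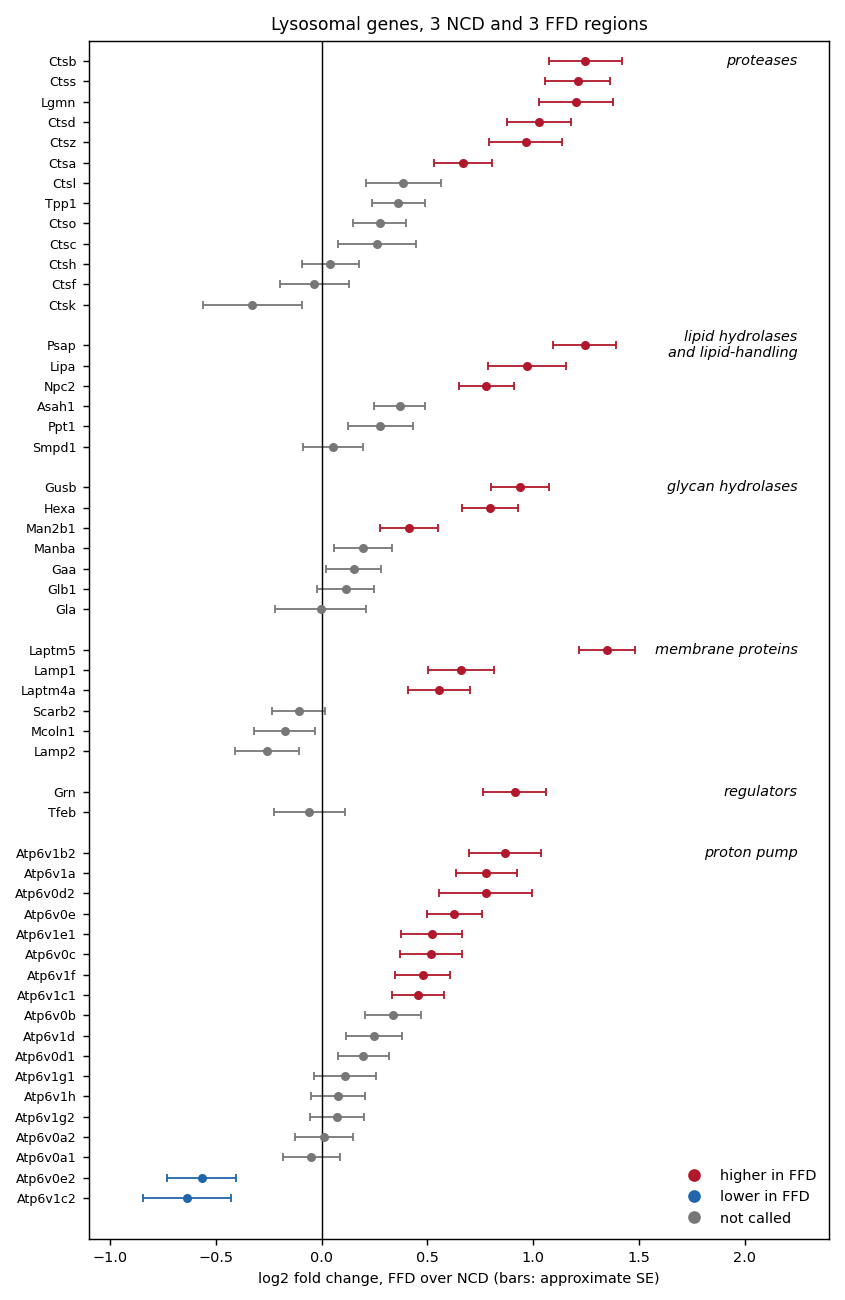
Log2 fold change, FFD over NCD, of each of the 52 tested lysosomal genes, grouped by role, with the approximate standard error as bars. Red points passed the test as higher in FFD (24 genes), blue points as lower (2 genes, both pump subunits), and grey points did not pass.

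The proteases that rose were the cysteine and aspartic cathepsins B, S, Z and D, the carboxypeptidase cathepsin A and the asparaginyl endopeptidase legumain, 6 of the 13 protease genes, while none fell. The median log2 fold change of the 13 was 0.39. Ctsb, whose product is an abundant cysteine protease, was at 57.4, 63.5 and 75.3 CPM in NCD 1 to 3 and at 117, 159 and 191 CPM in FFD 1 to 3. The lowest FFD region was above the highest NCD region. Its mean was 65.4 ± 9.09 CPM (SD, n = 3) in NCD and 156 ± 37.1 CPM in FFD, a 2.37-fold rise (log2 1.25 ± 0.17 SE, edgeR adjusted p = 0.000218).

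Ctss (Gene ID 13040, GRCm38.p6 chr3:95526786-95556405) encodes cathepsin S, the protease that trims the invariant chain of MHC class II in antigen-presenting cells. It was at 119, 104 and 85.9 CPM in NCD and at 215, 265 and 231 CPM in FFD regions. The groups were apart, with a 2.31-fold rise (log2 1.21 ± 0.15 SE, edgeR adjusted p = 8.37e-05). Lgmn, for legumain, which cleaves after asparagine and matures other cathepsins, was at 172, 149 and 156 CPM in NCD and at 353, 277 and 466 CPM in FFD. It rose 2.30-fold, with the FFD regions spread more widely (365 ± 94.97 CPM) than the NCD regions (159 ± 11.5 CPM) and an edgeR adjusted p of 0.00035.

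Ctsd (Gene ID 13033, GRCm38.p6 chr7:142375910-142387827), for the main aspartic protease of lysosomes, was at 286, 304 and 349 CPM in NCD and at 565, 652 and 697 CPM in FFD regions. Every FFD region stood well above the NCD range, and the rise was 2.04-fold (log2 1.03 ± 0.15 SE, edgeR adjusted p = 0.000378). Ctsz, a carboxypeptidase, was at 92.4, 95.9 and 134 CPM against 181, 194 and 258 CPM, a 1.95-fold rise (edgeR adjusted p = 0.00179) with NCD 3 and FFD 3 the highest of their diets. Ctsa, whose product also protects β-galactosidase and neuraminidase, rose from 125 ± 12.4 to 198 ± 13.7 CPM (log2 0.67 ± 0.14 SE, edgeR adjusted p = 0.0041).

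The other 7 proteases did not pass the test. Ctsl, for the cysteine protease cathepsin L, was at 420.1, 428 and 630.3 CPM in NCD and at 670.2, 575 and 689 CPM in FFD regions. NCD 3 overlapped the FFD range, and the log2 fold change was 0.39 (95% interval 0.01 to 0.76, edgeR adjusted p = 0.137). Without NCD 3 the Ctsl value was 0.60 and passed (edgeR adjusted p = 0.0159). Tpp1, a tripeptidyl peptidase, had no overlap between the diets (56.5 ± 4.81 and 73.0 ± 3.20 CPM) and missed the threshold (log2 0.36, edgeR adjusted p = 0.0576), but passed in 8 of the 19 alternatives, TMM scaling (log2 0.46, adjusted p = 0.0258) and the fit without NCD 3 (0.43, 0.0392) among them. The log2 fold changes of Ctso, Ctsc, Ctsh, Ctsf and Ctsk were 0.27, 0.26, 0.04, -0.04 and -0.33. Of these, Ctsk, the collagen-degrading cathepsin of osteoclasts, and Ctsf were above the detection limit in 1 of 3 NCD regions.

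Among the genes for lipid breakdown, those that rose were Psap, Lipa and Npc2, 3 of 6, and none fell, with a median log2 fold change of 0.57. Psap (Gene ID 19156, GRCm38.p6 chr10:60277628-60302600) encodes the precursor of the saposins, which present sphingolipids to their hydrolases. Its NCD regions were almost equal, at 233, 229 and 232 CPM, and its FFD regions were at 467, 566 and 609 CPM. All FFD regions were thus above the NCD level, with a 2.37-fold rise (log2 1.24 ± 0.15 SE, edgeR adjusted p = 4.86e-05).

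Lipa, for the acid lipase that splits cholesteryl esters and triglycerides in lysosomes, was at 179, 165 and 166 CPM in NCD and at 438, 243 and 317 CPM in FFD regions. FFD 1 was the highest and FFD 2 the lowest of its diet, and still above every NCD region. The mean went from 169.9 ± 8.20 to 333 ± 98.5 CPM, a 1.96-fold rise (log2 0.97 ± 0.18 SE, edgeR adjusted p = 0.0025). Npc2, for the soluble protein that binds freed cholesterol and hands it to the membrane protein Npc1, was at 95.3, 92.1 and 105 CPM in NCD and at 162, 168 and 172 CPM in FFD. Both diets were tight, and the rise was 1.72-fold (log2 0.78 ± 0.13 SE, edgeR adjusted p = 0.000864).

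Asah1, for acid ceramidase, did not overlap between the diets (91.7 ± 2.65 and 118 ± 4.54 CPM, log2 0.37) and narrowly missed the threshold, with an edgeR adjusted p of 0.0505. It passed in all 12 alternatives of scaling, test, filter or subtraction (adjusted p 0.00135 to 0.0494) and in none of the 7 that left regions out. Ppt1, a thioesterase that removes palmitate from proteins, was not above the detection limit in any NCD region (log2 0.28, edgeR adjusted p = 0.223). Smpd1, for acid sphingomyelinase, had a log2 fold change of 0.05 (95% interval -0.25 to 0.35).

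The glycan hydrolases that rose were Gusb, Hexa and Man2b1, 3 of the 7 tested, and none fell. The median log2 fold change was 0.20. Gusb, for β-glucuronidase, which acts on glycosaminoglycans, was at 31.1, 24.8 and 32.0 CPM in NCD and at 56.0, 54.6 and 58.6 CPM in FFD regions. NCD 2 was below the detection limit, the FFD regions were close together, and the rise was 1.91-fold (log2 0.94 ± 0.14 SE, edgeR adjusted p = 0.000317). Hexa, for the α chain of β-hexosaminidase, was at 87.0, 98.4 and 104 CPM in NCD and at 156, 169.6 and 179 CPM in FFD. The groups were apart, with a 1.74-fold rise (log2 0.80 ± 0.13 SE, edgeR adjusted p = 0.000978).

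Man2b1, for acid α-mannosidase, was at 101, 96.7 and 114 CPM in NCD and at 152, 121 and 142 CPM in FFD regions. FFD 2 was little above NCD 3, and the 1.33-fold rise (log2 0.41 ± 0.14 SE) passed at an edgeR adjusted p of 0.04998. That call was lost when NCD 1 (adjusted p = 0.150), NCD 2 (0.201), FFD 1 (0.129) or FFD 3 (0.0947) was left out. Manba, Gaa and Glb1, for β-mannosidase, the glycogen-degrading acid α-glucosidase and β-galactosidase, had log2 fold changes of 0.20, 0.15 and 0.11 and did not pass. Gla, for α-galactosidase, was under the detection limit in every region (log2 -0.01), as was the untested Naglu (18.1 ± 3.04 CPM in NCD and 17.6 ± 2.63 CPM in FFD), which acts on heparan sulfate.

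**Figure D2:**
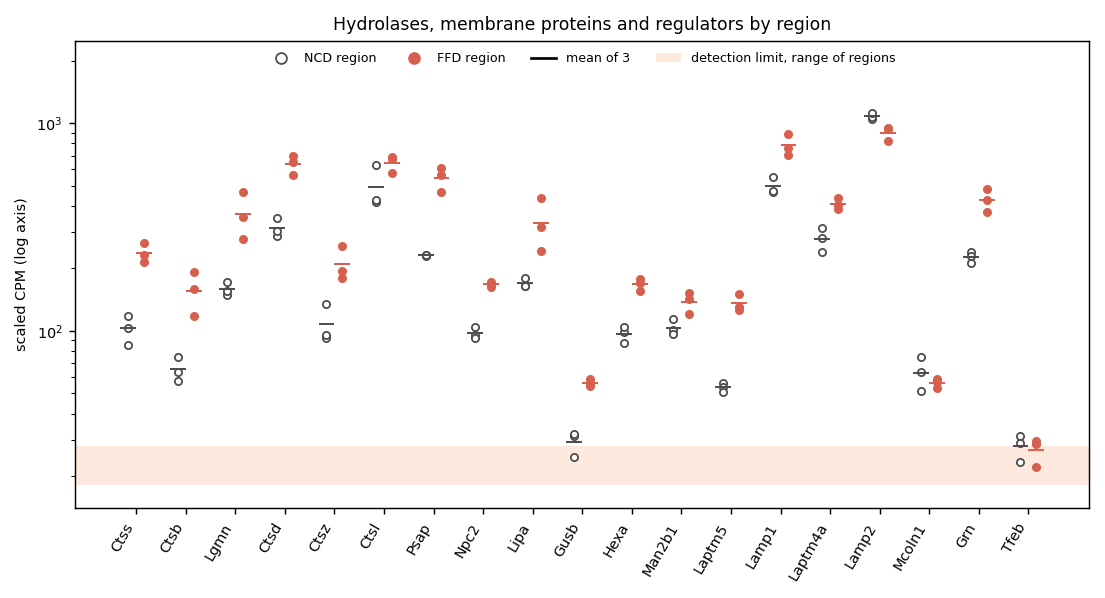
Scaled CPM on a log axis of the hydrolases, membrane proteins and regulators given region by region, with open points for the 3 NCD regions, filled points for the 3 FFD regions, lines for the means, and a band for the range of the detection limit over regions (18.2 to 28.0 CPM). Psap and Laptm5 show tight NCD regions well below the FFD regions, Ctsl, Mcoln1 and Tfeb overlap between the diets, and Lamp2 lies slightly lower in FFD.

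The membrane proteins were divided. Laptm5, Lamp1 and Laptm4a rose, 3 of 6, and Lamp2, Mcoln1 and Scarb2 had negative values that did not pass the test. Laptm5 (Gene ID 16792, GRCm38.p6 chr4:130912890-130936148) encodes a lysosomal protein of blood-forming and immune cells. It was at 55.9, 53.8 and 50.8 CPM in NCD and at 131, 126 and 151 CPM in FFD regions. This was the highest fold change of the 52 genes, 2.54-fold (log2 1.35 ± 0.13 SE, edgeR adjusted p = 7.63e-06), with the diets far apart.

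Lamp1 and Lamp2 encode the main glycoproteins of the lysosomal membrane. Lamp1 (Gene ID 16783, GRCm38.p6 chr8:13159161-13175338) was at 465, 474 and 549.7 CPM in NCD and at 701, 765 and 888 CPM in FFD regions, without overlap. Its 1.58-fold rise (log2 0.66 ± 0.16 SE, edgeR adjusted p = 0.00968) did not pass when NCD 1 (adjusted p = 0.0596) or NCD 2 (0.0744) was left out. Lamp2 (Gene ID 16784, GRCm38.p6 chrX:38399647-38456460) was at 1046, 1078 and 1117 CPM in NCD and at 943, 819.5 and 947 CPM in FFD regions. Here every FFD region was below every NCD region, yet the log2 fold change of -0.26 (95% interval -0.58 to 0.07) did not pass (edgeR adjusted p = 0.251), and with negative probe scaling its sign turned (0.13). Whether the Lamp1 and Lamp2 changes differ from each other was not tested.

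Laptm4a, a transmembrane protein of late endosomes and lysosomes, was at 240.2, 279.7 and 313 CPM in NCD and at 404, 385 and 435 CPM in FFD regions. All FFD regions were above the NCD range, a 1.47-fold rise (log2 0.55 ± 0.15 SE, edgeR adjusted p = 0.0182) that did not pass without NCD 1 (adjusted p = 0.110) or NCD 2 (0.0893). Mcoln1, for the calcium channel of the lysosomal membrane, was at 51.5, 63.1 and 74.6 CPM in NCD and at 53.4, 58.9 and 56.6 CPM in FFD. The FFD regions lay within the NCD range, with a log2 fold change of -0.18 (95% interval -0.48 to 0.13, edgeR adjusted p = 0.415), which turned to 0.22 with negative probe scaling. Scarb2, for the carrier that brings β-glucocerebrosidase to lysosomes, had a log2 fold change of -0.11 (95% interval -0.38 to 0.16).

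Of the genes for regulators, Grn rose and Tfeb did not pass. Grn, for progranulin, a secreted protein that is cut into granulins in lysosomes and binds prosaposin and cathepsin D, was at 241, 229 and 212 CPM in NCD and at 426, 372 and 485 CPM in FFD regions. The diets were apart, with a 1.88-fold rise (log2 0.91 ± 0.15 SE, edgeR adjusted p = 0.000785). Tfeb (Gene ID 21425, GRCm38.p6 chr17:47737037-47792416), for the factor that binds the CLEAR element, was at 23.3, 31.1 and 28.8 CPM in NCD and at 22.1, 29.6 and 28.5 CPM in FFD regions. These were near the detection limit and overlapped, with a log2 fold change of -0.06 (95% interval -0.41 to 0.30, edgeR adjusted p = 0.841) whose sign turned in 9 of the 19 alternatives. Tfeb acts mainly through its move into the nucleus, which RNA counts do not measure.

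The promoters with a CLEAR core were spread over genes that rose and genes not called higher. Of the 20 genes that rose and had a promoter entry, 6 held CACGTG and 4 held GTCACGTG, and of the other 29 genes 9 and 6 did. The 29 include genes that were not tested, and of these Naglu held the longer motif. Ctsd, Lgmn and Lamp1, with the promoters printed above, rose, and Mcoln1, with 2 copies of the longer motif, did not pass.

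Of the proton pump subunits, 8 of 18 tested rose (44.4%, beside 5.94% of all tested genes) and 2 fell, with a median log2 fold change of 0.29. The share that fell, 11.1%, is the same as that of all tested genes. The V1 sector gave 5 higher and 1 lower of 10 tested, with a median of 0.35, and the V0 sector 3 higher and 1 lower of 8, with a median of 0.27. Atp6v1a (Gene ID 11964, GRCm38.p6 chr16:44085402-44139702) encodes the catalytic A subunit of V1. It was at 41.8, 38.3 and 46.7 CPM in NCD and at 69.8, 63.6 and 85.9 CPM in FFD regions. It rose 1.71-fold without overlap (log2 0.78 ± 0.15 SE, edgeR adjusted p = 0.00219).

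Atp6v1b2, for the B subunit that alternates with A in the head of V1, was at 45.7, 54.3 and 50.8 CPM in NCD and at 74.3, 82.0 and 120.0 CPM in FFD regions. FFD 3 was the highest, and the rise was 1.82-fold (log2 0.87 ± 0.17 SE, edgeR adjusted p = 0.003). Atp6v0e, for the small e subunit of the membrane sector, was at 60.8, 68.6 and 68.7 CPM in NCD and at 102, 93.5 and 111 CPM in FFD. The groups were apart, with a 1.54-fold rise (log2 0.63 ± 0.13 SE, edgeR adjusted p = 0.00427).

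Atp6v1c1, for the C subunit that joins the sectors, was at 45.2, 42.5 and 46.1 CPM in NCD and at 59.5, 60.5 and 63.8 CPM in FFD regions. Both diets were tight, and the rise was 1.37-fold (edgeR adjusted p = 0.0193). Atp6v1f, for a subunit of the central stalk, was at 82.6, 69.4 and 84.7 CPM in NCD and at 115, 104 and 112 CPM in FFD, a 1.39-fold rise (edgeR adjusted p = 0.0202). Atp6v1e1, of the peripheral stalk, rose by 0.52 on the log2 scale (edgeR adjusted p = 0.0236), as did Atp6v0c by 0.52 (0.0262), the proteolipid of the proton-carrying ring. The Atp6v0c probe target is shared with the pseudogene Atp6v0c-ps2, so the 2 cannot be told apart.

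Atp6v0d2, an isoform of the d subunit known from osteoclasts and macrophages, was at 25.8, 20.6 and 23.8 CPM in NCD, under the detection limit in all 3, and at 24.4, 45.2 and 50.2 CPM in FFD regions. FFD 1 overlapped the NCD range, and the log2 fold change was 0.78 ± 0.22 SE (edgeR adjusted p = 0.0245). The calls of Atp6v1c1, Atp6v1f, Atp6v1e1, Atp6v0d2 and Atp6v0c were lost without NCD 1 (adjusted p 0.0503 to 0.118) and without NCD 2 (0.0988 to 0.132). Without FFD 3 those of Atp6v1c1, Atp6v1e1, Atp6v0d2 and Atp6v0c were lost (0.0512 to 0.0812), and without FFD 2 that of Atp6v0d2 (0.0982). The calls of Atp6v1a, Atp6v1b2 and Atp6v0e were kept with any 1 region left out.

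The pump targets that fell were Atp6v0e2 and Atp6v1c2, alternative isoforms of the e and C subunits. Atp6v0e2 was at 92.4, 94.6 and 67.4 CPM in NCD and at 50.3, 69.5 and 49.8 CPM in FFD regions. FFD 2 overlapped NCD 3, and the gene fell by 0.57 on the log2 scale (± 0.16 SE, edgeR adjusted p = 0.0278). Atp6v1c2 was at 26.7, 23.6 and 16.3 CPM against 11.8, 15.0 and 14.9 CPM, under the detection limit in every region, and fell by 0.64 (± 0.21 SE, edgeR adjusted p = 0.0477). Both calls were lost without NCD 1 (log2 -0.50 and -0.49, adjusted p = 0.105 and 0.177) or NCD 2 (-0.48 and -0.58, adjusted p = 0.129 and 0.153), without FFD 1 (adjusted p = 0.0870 and 0.131), without FFD 3 (0.0744 and 0.0623), and with TMM or negative probe scaling. That of Atp6v1c2 was lost without FFD 2 too (0.0821).

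The remaining 8 tested subunits did not pass. Their log2 fold changes ran from -0.05 for Atp6v0a1 to 0.34 for Atp6v0b, a proteolipid of the V0 ring (edgeR adjusted p = 0.0918). Atp6v0a1 and Atp6v0a2, for a subunits that direct the pump to different membranes, were near 0 (95% intervals -0.34 to 0.24 and -0.28 to 0.30). The untested Atp6v0a4, Atp6v1b1 and Atp6v1g3, isoforms known from kidney, had means between 11.6 and 21.1 CPM in either diet, not above the detection limit in any region.

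**Figure D3:**
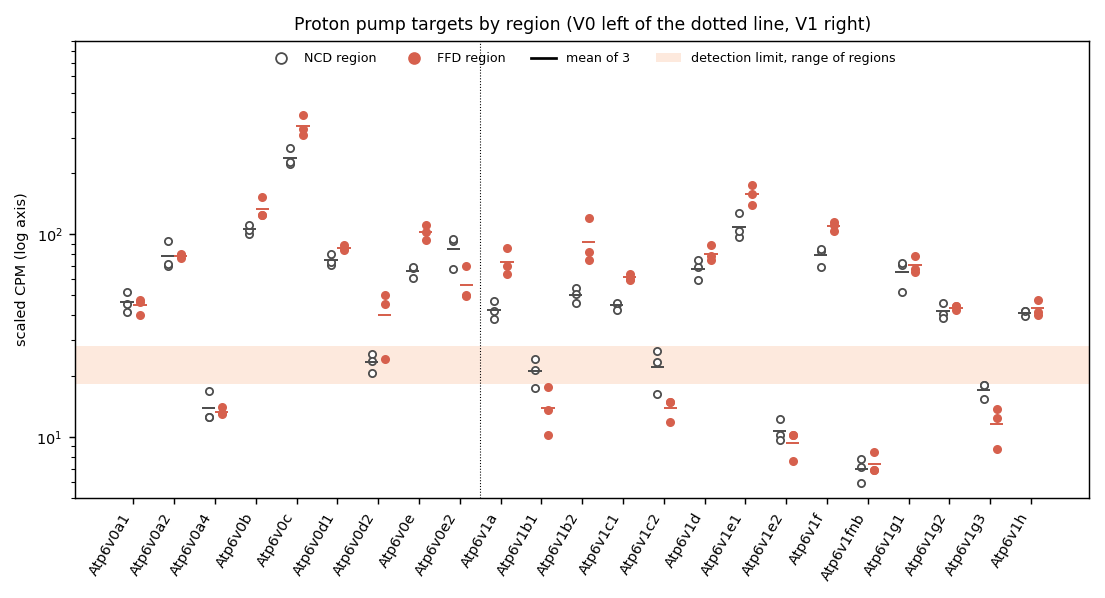
Scaled CPM on a log axis of all 23 Atp6v0 and Atp6v1 targets in the 3 NCD (open) and 3 FFD (filled) regions, with means as lines and the range of the detection limit over regions as a band. Atp6v1a, Atp6v1b2 and Atp6v0e lie higher in FFD without overlap, Atp6v0e2 lies lower with an overlap, and 6 targets, Atp6v1c2 among them, are not above the limit in any region.

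Lysosomal genes varied between regions of 1 diet as follows. The median coefficient of variation of the tested lysosomal genes was 9.65% in NCD and 9.84% in FFD, beside 11.6% and 11.9% over all tested genes. Of the 24 genes that rose, FFD 3 had the highest FFD level in 19 and the lowest in 0, and NCD 3 had the highest NCD level in 16. With FFD 3 as the only FFD region 21 genes were called higher and 0 lower, and without FFD 3 the counts were 19 and 0. Leaving out NCD 1 or NCD 2 gave 16 higher and 0 lower each. In those fits Lamp1, Laptm4a, Man2b1 and the pump calls named above were lost, while the proteases Ctsa, Ctsb, Ctsd, Ctss, Ctsz and Lgmn, the lipid genes Psap, Npc2 and Lipa, and Gusb, Hexa, Laptm5 and Grn passed whichever single region was left out.

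Further genes of the lysosome, its supply and its regulation were counted in the same fit. Of 25 further hydrolases tested 3 rose (12%, beside 5.94% of all tested genes) and none fell, with a median log2 fold change of 0.15. Among them were Acp5, for tartrate-resistant acid phosphatase (172 ± 13.6 to 258 ± 20.6 CPM, log2 0.58, edgeR adjusted p = 0.00963), and Cpq, a carboxypeptidase (log2 0.47, edgeR adjusted p = 0.0264). Of 27 further membrane proteins and transporters 4 rose (14.8%) and none fell, with a median of 0.01. Cd63, a tetraspanin of late endosomes, went from 47.2 ± 3.73 to 259.5 ± 15.1 CPM (log2 2.46 ± 0.14 SE, edgeR adjusted p = 3.02e-08). Cd68, a lysosomal glycoprotein used as a macrophage marker, rose by 1.07 (adjusted p = 0.00147) and the transporter gene Mfsd1 by 0.57 (0.00625) on the log2 scale.

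Of 21 genes that sort enzymes to lysosomes 5 rose (23.8%, 1 to 5 genes with any single region left out) and none fell, with a median log2 fold change of 0.16. Clta, for a clathrin light chain, rose by 0.66 (edgeR adjusted p = 0.00319), and the adaptor genes Ap1s1 and Ap3d1 by 0.47 and 0.43 (0.0297 and 0.0306). Of 19 relatives of Tfeb and regulators of the mTORC1 kinase, which holds Tfeb in the cytosol, 2 rose and none fell, with a median of 0.10. The share of 10.5% is about 1 gene from that of all tested genes, and the count was 0 without NCD 1, NCD 2 or FFD 2. The called genes were Ywhaz, for a 14-3-3 protein, and the Rag GTPase gene Rragd, each by 0.51 (edgeR adjusted p = 0.0176 and 0.0480). Rragd was at 16.3 ± 0.47 and 23.0 ± 1.94 CPM, above the detection limit in 0 of 3 NCD and in 2 of 3 FFD regions. Of the 3 cystatins tested, inhibitors of cathepsins, Cstb and Cst3 rose by 1.22 and 0.98 (edgeR adjusted p = 7.46e-05 and 0.00055).

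Of 25 autophagy genes 2 rose and 4 fell, with a median log2 fold change of -0.02. These shares, 8% and 16%, are near the 5.94% and 11.1% of all tested genes. Sqstm1, for the cargo adaptor p62, rose by 0.75 (edgeR adjusted p = 0.00557). Ulk1 and Atg13, for parts of the kinase complex that starts autophagy, fell by 0.73 and 0.60 (edgeR adjusted p = 0.00161 and 0.00645). Over these 6 lists 18 genes rose and 4 fell, and without NCD 1 or NCD 2 the lists gave 8 and 9 higher calls. Acp5, Cpq, Ap1s1, Ap3d1, Ywhaz and Rragd did not pass in those fits. Cd63, Cd68, Mfsd1, Clta, Cstb, Cst3, Sqstm1, Ulk1 and Atg13 passed with any single region left out.

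Markers of some other cell types were also higher in FFD regions, and those of others were not. All 8 tested markers of lipid-associated and monocyte-derived macrophages rose, of 10 listed, where 5.94% of all tested genes rose. The untested markers, Ccr2 and Cx3cr1, were not in the authors' filtered table. Both overlapped between the diets, with the FFD mean lower for Ccr2 and higher for Cx3cr1. Ccr2 was above the detection limit in no region, and Cx3cr1 in 1 FFD region. The rule of the filtered table is not given, so the result holds for the tested markers and not for the whole list. The sum over the list was 228 to 233 CPM in NCD regions and 1241, 1592 and 999.6 CPM in FFD 1 to 3. Of these FFD sums of the macrophage list, Spp1 gave 830, 953 and 193 CPM. Trem2, a lipid receptor of these cells, was above the detection limit in 0 of 3 NCD and in 3 of 3 FFD regions (20.2 ± 5.04 and 48.1 ± 10.3 CPM), and Gpnmb likewise (17.8 ± 2.34 and 96.8 ± 47.1 CPM). Mmp12, Itgax, Clec7a and Lyz2 were also above it in 0 of 3 NCD and in 3 of 3 FFD regions. Of 12 Kupffer cell markers 5 rose and 2 fell, with sums of 1037 to 1348 and 1480 to 2171 CPM. These are 41.7% and 16.7% of the list, beside 5.94% and 11.1% of all tested genes. The Kupffer list was thus divided, with Cd5l, Adgre1, C1qa, C1qb and C1qc called higher and Cd163 and Timd4 called lower. Cd163 had a log2 fold change of -1.85 (edgeR adjusted p = 0.000169), and its call was kept in all 19 alternatives. Timd4 had a log2 fold change of -0.68 (edgeR adjusted p = 0.0489), and its call was kept in 4 of the 19. The macrophage list gave 8 higher calls in each of the 19 alternatives, and the Kupffer list 4 or 5 with any single region left out. Clec4f itself was at 121 ± 5.74 and 122 ± 50.7 CPM. No listed marker of these types was at 0, but counts near the negative probe level do not show expression. Of the 10 macrophage markers, 2 were above the detection limit in each NCD region and 8 to 9 in the FFD regions.

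Of 10 stellate cell and fibroblast markers 7 rose and none fell (sums 481 to 535 and 833 to 1428 CPM), with 6 to 8 called when any single region was left out and 3 with FFD 3 as the lone FFD region. The 7 genes are 70% of the stellate list, beside 5.94% of all tested genes. Of 5 tested cholangiocyte markers 2 rose (40%, with sums of 157 to 181 and 298 to 1145 CPM), with 1 to 3 called when a region was left out. Spp1, called here, is also in the macrophage list and made up most of the FFD sums. It gave 830, 953 and 193 CPM of 983, 1145 and 298 CPM in FFD 1 to 3. In NCD 1 to 3 Spp1 was at 30.1, 50.5 and 70.9 CPM. Of 9 hepatocyte markers 4 fell (44.4%, beside 11.1% of all tested genes) and none rose. The sums, most of them Alb, were 85583 to 122259 and 44772 to 74651 CPM. The 4 lower calls, Apoa1, Serpina1a, Hnf4a and Cps1, were all lost without NCD 2. The number of lower calls in the hepatocyte list was 3 without NCD 1, 2 without NCD 3 or FFD 1, 1 without FFD 2, 7 without FFD 3, 2 with TMM and 0 with negative probe scaling. Lymphocyte (181 to 242 and 160 to 175 CPM), neutrophil (159 to 180 and 145 to 155 CPM) and endothelial sums (584 to 630 and 482 to 668 CPM) came with 0, 0 and 1 markers higher, of 6, 5 and 8 tested, and 1 lower in each list. The lower shares were 16.7, 20 and 12.5%, beside 11.1% of all tested genes. The endothelial higher share was 12.5%, beside 5.94%. Each of these shares rests on 1 gene. The neutrophil and endothelial calls were lost without NCD 1 or NCD 2. The part of any of these cell types in the rise of Ctss, Laptm5, Grn, Psap and the other lysosomal genes was not tested.

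**Figure D4:**
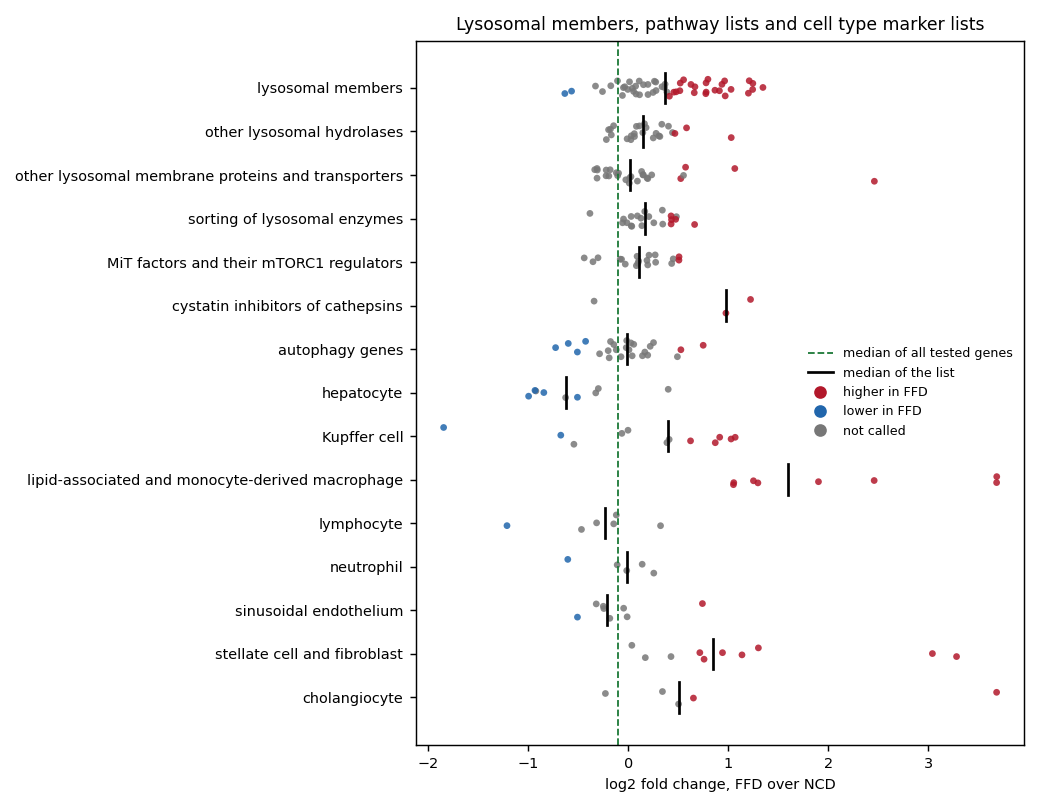
Log2 fold change, FFD over NCD, of each tested gene (points) in the lysosomal set, the further lysosome lists and the cell type marker lists, with each list's median as a black bar and the median of all tested genes (-0.11) as a dashed line. The lysosomal median of 0.37 is above that of the further hydrolases (0.15). It is below those of the Kupffer cell (0.40), cholangiocyte (0.50), stellate cell and fibroblast (0.85), cystatin (0.98) and lipid-associated and monocyte-derived macrophage lists (1.60).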

How the data were processed

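Per the labels' protocols, barcodes released from each region were counted by sequencing and Q3 normalization was preferred. The authors deposited expected counts per target after probe quality control for 19963 targets, and the same counts for a filtered set of 13099, by a rule not given in the sources used here. The filtered table differs from the full one in 1 cell, where the full table was used. The Q3 table deposited by the authors is a signal, namely the counts scaled by each region's 75th percentile. Per the file headers, the segment table gives nuclei and reads as counts. It gives saturation as a percent per the file headers. Area, slide position and limit of quantitation are other values per the file headers. The submitters' processing notes name GRCm38 and edgeR, with no version or role. The control without template was not analysed here.

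From these, 13095 genes of the filtered table were tested with edgeR 4.0.16 (glmQLFit, glmQLFTest, R 4.3.3) on upper quartile scaling, with diet as the only term, n = 3 regions per diet and p-values adjusted by Benjamini-Hochberg over the 13095 genes. The 12 targets that are not genes (0.0145 to 0.0192% of counts) were left out, and 3 tested targets that were not whole were rounded. SE is approximate, the absolute log2 fold change over the square root of the F statistic, and 95% intervals use it. The biological coefficient of variation was 12.0%. The script was tested on simulated data. Levels of different genes come from different probes and were not compared.

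Genes given region by region were up to 5 of each role group with the smallest p past the threshold, and Tfeb, Mcoln1, Ctsb, Ctsd, Ctsl, Lamp1 and Lamp2. Atp6v0d2, Atp6v0e2 and Atp6v1c2 were added after their values were seen. From each further list at most 3 genes past the threshold were named, by p, and 1 gene that this rule picked is not reported here. The genes and lists were chosen with earlier results of these data known. The 19 alternatives covered scaling (TMM, DESeq2 1.42.0 size factors, total counts, negative probes), tests (DESeq2, limma 3.58.1 voom, limma trend on the Q3 signal with a pseudocount of 1, edgeR's robust option), filters, subtraction of the negative probe level and regions left out.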

Additional observations from a re-analysis of the deposited data

How the results depend on the processing

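All 26 calls among the lysosomal genes kept their direction in each of the 19 alternatives that tested them, and 16 of the 24 higher genes passed in all 19. The median of the lysosomal genes minus that of all genes was 0.47 on the log2 scale and ran from 0.40 to 0.59. The count of lysosomal genes higher in FFD went from 24 to 39 with negative probe scaling, which moved the median of all genes from -0.11 to 0.28, and ran from 16 to 26 with 1 region left out. Fitting all targets without a filter gave 26 higher and 1 lower. The lower count of 2 became 0 with TMM, DESeq2 size factor, total count or negative probe scaling, with the DESeq2 test, with subtraction and when FFD 3 was used alone for its diet. It became 1 with voom, without a filter, with filterByExpr and with genes above the limit in 3 regions, and ran from 0 to 2 with 1 region left out. In the further lists, 18 higher became 63 with negative probe scaling and 11 with FFD 3 alone, and ran from 8 to 20 with 1 region left out. Their 4 lower became 2 with TMM, size factor or total count scaling, with subtraction and with FFD 3 alone, 0 with negative probe scaling and 1 with the DESeq2 test, and ran from 2 to 4 with 1 region left out.

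The log2 fold change of Tfeb turned positive, at 0.0390 with TMM, 0.0385 with size factors, 0.0411 with the DESeq2 test, 0.0580 with total counts, 0.34 with negative probes, 0.21 with subtraction and 0.0275 with FFD 3 alone, and ran from -0.16 to 0.0577 with 1 region left out, positive without NCD 2 and without FFD 1. Mcoln1 and Lamp2 turned positive with negative probe scaling (0.22 and 0.13). GEO's labels number the regions consecutively across both diets, and the replicate numbers used here are names in that order. The segment comments number them 1 to 3 within each diet without saying that a number marks a pair. Deviations of same-numbered regions from their diet's mean correlated at 0.0274, 0.0343 and 0.0928 over 8886 genes. Those of differently numbered regions correlated at -0.0665 to 0.0378. Values this small, from 3 regions per diet, cannot settle whether a number marks a pair, and pairing was not assumed. With that number as a replicate block, chosen after seeing the data, 24 lysosomal genes were higher and 2 lower, all 26 calls were kept, and the further lists gave 20 and 4. Why these counts moved was not tested. A fit with 1 FFD region assumes that it varies like the NCD regions. With 3 regions per diet and 2069102 to 3491371 counts each, genes near the negative probe level, such as Tfeb, Gla and Atp6v1c2, cannot show small differences.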
